A study of Mus musculus with 4 samples.

Results

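Type 1 innate lymphoid cells (ILC1) of the adult mouse liver were examined in a single-cell RNA data set of livers from male offspring. They were picked by a rule on detected genes, a gene being detected with at least 1 UMI (unique molecular identifier, 1 captured RNA molecule). A barcode had to have at least 300 genes, at most 25% of UMIs from mt- genes, no UMI of Cd3d, Cd3e, Cd3g or Cd79a, and at least 2 of the 5 NK genes Ncr1, Klrb1c, Klrd1, Nkg7 and Klrk1. It also had to show more of the 6 genes Cxcr6, Tmem176a, Tmem176b, Cd200r1, Il7r and Itga1 than of Eomes, Klra4, Klra8, Klra7, S1pr5 and Itga2. The rule was met by 240 of the 11981 barcodes that passed the filters in the 2 adult libraries, of 29335 barcodes in the series.

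The series compared offspring of mothers with intrauterine hyperglycemia (IHG) with offspring of control mothers (Ctrl), to describe inflammatory features of their livers. Both adult groups were male offspring at 8 weeks of age whose livers were perfused through the portal vein, and each group was 1 library pooled from 3 animals. The IHG library gave 114 of the members and the Ctrl library gave 126. Livers were digested with collagenases IV and I, DNase I and hyaluronidase and treated to lyse erythrocytes. The strain and the way hyperglycemia was induced are not given in the sources used here, and the fetal libraries (E18.5) entered only as a side count.

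ILC1 are innate lymphocytes that stay in tissues, and the liver holds one of their best studied populations. They share the natural killer (NK) receptors NKp46 (Ncr1) and NK1.1 (Klrb1c) and the capacity to make interferon gamma with conventional NK cells (cNK), which circulate in the blood and depend on the transcription factor Eomes. In mouse liver the ILC1 are known for the integrin CD49a (Itga1), the chemokine receptor CXCR6, the death ligand TRAIL (Tnfsf10) and the chemokine XCL1, and for little Eomes and few Ly49 receptors (the Klra genes).

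The genes of the rule are shown here by the promoters of 4 of them, because the barcodes were chosen by the joint detection of these genes. Each window is 300 bases from RefSeq on GRCm38.p6, 250 before to 50 after an annotated start on the + strand, with matches to the RUNX letters TGTGGT and the T-box letters GGTGTGA, on either strand, in capitals. The windows are chr7:4337465-4337764 for Ncr1, chr7:43436888-43437187 for Nkg7, chr9:123806227-123806526 for Cxcr6 and chr6:48841233-48841532 for Tmem176a.
Ncr1: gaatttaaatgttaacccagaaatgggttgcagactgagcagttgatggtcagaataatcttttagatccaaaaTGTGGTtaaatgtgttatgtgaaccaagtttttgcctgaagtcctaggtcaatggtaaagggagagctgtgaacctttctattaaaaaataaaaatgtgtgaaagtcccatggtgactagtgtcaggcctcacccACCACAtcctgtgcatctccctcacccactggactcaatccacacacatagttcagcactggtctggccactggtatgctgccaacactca
Nkg7: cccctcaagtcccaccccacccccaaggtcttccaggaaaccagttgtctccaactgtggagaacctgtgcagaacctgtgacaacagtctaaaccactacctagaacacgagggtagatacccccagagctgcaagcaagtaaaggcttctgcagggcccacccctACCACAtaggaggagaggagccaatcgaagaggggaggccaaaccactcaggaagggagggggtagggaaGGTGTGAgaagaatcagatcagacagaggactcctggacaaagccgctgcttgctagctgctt
Cxcr6: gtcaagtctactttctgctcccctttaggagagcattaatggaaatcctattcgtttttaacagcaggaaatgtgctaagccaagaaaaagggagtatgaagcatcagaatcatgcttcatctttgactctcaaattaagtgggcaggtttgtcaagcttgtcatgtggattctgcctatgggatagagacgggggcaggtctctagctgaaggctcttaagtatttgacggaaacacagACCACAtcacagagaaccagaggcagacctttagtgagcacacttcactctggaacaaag
Tmem176a: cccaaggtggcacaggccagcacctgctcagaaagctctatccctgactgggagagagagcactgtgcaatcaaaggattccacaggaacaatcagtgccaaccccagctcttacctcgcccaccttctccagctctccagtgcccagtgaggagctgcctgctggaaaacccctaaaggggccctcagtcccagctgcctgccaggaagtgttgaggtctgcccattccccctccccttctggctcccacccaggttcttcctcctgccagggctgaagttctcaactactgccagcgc
The RUNX letters stood in a window of 4 of the 4 NK genes in the table (Klrd1 was not matched). They also stood in 2 of the 5 matched ILC1 genes, Cxcr6 and Il7r, with Cd200r1 not matched, and in 0 of the 6 cNK genes. All promoters of this length held them in 16.8% of 32851 cases. The T-box letters were found in 1 of these genes, Nkg7, against 3.98% of all promoters, and the ETS letters CCGGAAGT in none, against 3.89%. Tmem176a and Tmem176b, which encode a pair of related membrane proteins, lie head to head: the window printed for Tmem176a overlaps a window of Tmem176b on the - strand by 208 bases. A match is a run of letters and not a shown binding site.

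The members were deeper than cNK barcodes. Their median depth was 3330 UMIs and 1177 genes in the IHG library and 3322.5 UMIs and 1160.5 genes in the Ctrl library. Among cNK, which met the same filters and had more of the 6 cNK genes, the medians were 2267 UMIs in IHG and 2189.5 UMIs in Ctrl. The libraries held 19366065 UMIs (IHG) and 17987173 UMIs (Ctrl) in all, and the members summed to 432176 UMIs in IHG and 538129 UMIs in Ctrl. A rule on detected genes favours deep barcodes, and cNK were picked by such a rule too. Why the members were deeper than cNK was not tested. The adult libraries shared 8 barcodes.

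Many members sat at an edge of the rule. The surplus of ILC1 genes over cNK genes was 1 in 91 members, 2 in 89, 3 in 46, 4 in 11 and 5 in 3, and 232 members had none of the cNK genes. Outside the rule, 177 barcodes were tied, 168 of them with neither kind of gene. The number of NK genes was 2 in 94 members, 3 in 67, 4 in 52 and 5 in 27. Another 186 barcodes met the rest of the rule with 1 NK gene.

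The label did not hold for all members. The MHC class II genes H2-Aa, H2-Ab1, H2-Eb1 and Cd74, which present antigen on dendritic cells, macrophages and B cells, gave at least 10 UMIs together in 48 of the 240, 14 of 114 in IHG and 34 of 126 in Ctrl. Of these, 41 had 50 or more, while 13 members had 5 to 50, so the line at 10 does not fall in a gap. Of 450 cNK, 11 reached 10. The 48 were deep, with medians of 7335.5 UMIs in IHG and 6452 UMIs in Ctrl against 3139 and 3045 UMIs in the other members of those libraries, and they held 24.0% of the members' UMIs in IHG and 45.1% in Ctrl. Genes of dendritic cells, picked after their values were seen, were found in them: Cd209a, a lectin, had a UMI in 56.2%, the chemokine gene Ccl22 in 25% and the growth factor receptor gene Flt3 in 29.2%. In the other 192 members Cd209a and Ccl22 had no UMI, which allows up to 1.56% of barcodes with a UMI and sets no limit on cells that express them, and Flt3 had a UMI in 0.521%.

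The 2 sets of members also differed in the NK genes that had admitted them. Nkg7, a cytotoxic granule membrane protein, was detected in 16.7% of the MHC class II-rich members against 95.3% of the 192, Klrb1c in 10.4% against 64.1% and Ncr1 in 8.33% against 39.6%. Klrd1, which encodes CD94, was detected in 93.8% of the rich members against 57.3% of the 192. Tmem176b was found in 87.5% and Tmem176a in 75% of the rich members, against 57.8% and 46.9%. Xcl1, which the rule did not use, had a UMI in 22.9% of the rich members and 95.3% of the 192. The rich members are therefore called by that property. The counts and medians of gene lists below are given both for all 240 members and for the 192 without them, with such barcodes left out of every class, and a gene with a single value has that of the 192. That second set was chosen after the data were seen.

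**Figure D1:**
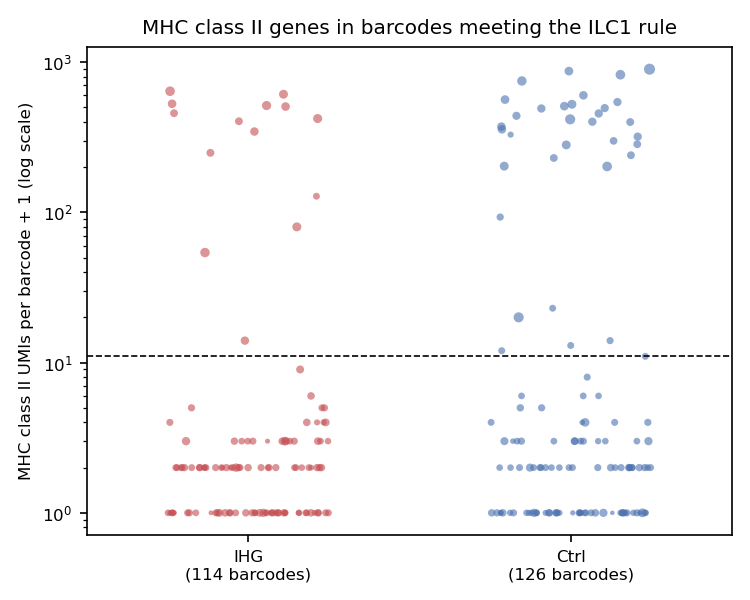
UMIs of H2-Aa, H2-Ab1, H2-Eb1 and Cd74 per barcode, plus 1, on a log axis, for the 114 IHG and 126 Ctrl members; each point is a barcode and the dashed line marks 10 UMIs. The 14 IHG and 34 Ctrl members at or above the line include 41 at 50 UMIs or more, and 13 members lie at 5 to 50 UMIs, on either side of the line.

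Among the 192, the genes of the rule were detected in varied combinations. Tmem176b had a UMI in 62 of 100 IHG members and 49 of 92 Ctrl members, Tmem176a in 48 and 42, Il7r, the interleukin-7 receptor, in 38 and 31, Cxcr6 in 28 and 37, and Itga1 in 17 and 15. Cd200r1, an inhibitory receptor, had a UMI in 6.25% of the 192. Both Tmem176 genes were detected in 62 of the 192 and 1 of them in 77, and 23 had Cxcr6 with neither. Among the NK genes Nkg7 was found in 93 IHG and 90 Ctrl members, Klrk1 in 71 and 62, Klrb1c in 64 and 59, Klrd1 in 56 and 54, and Ncr1 in 44 and 32. As a measure of free RNA, 4574 B cells (at least 2 Cd79a UMIs) had a Cxcr6 UMI in 0.153%, Tmem176a in 1.44%, Tmem176b in 1.88% and Il7r in 0.962%. These values follow from the rule and are a description only.

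**Figure D2:**
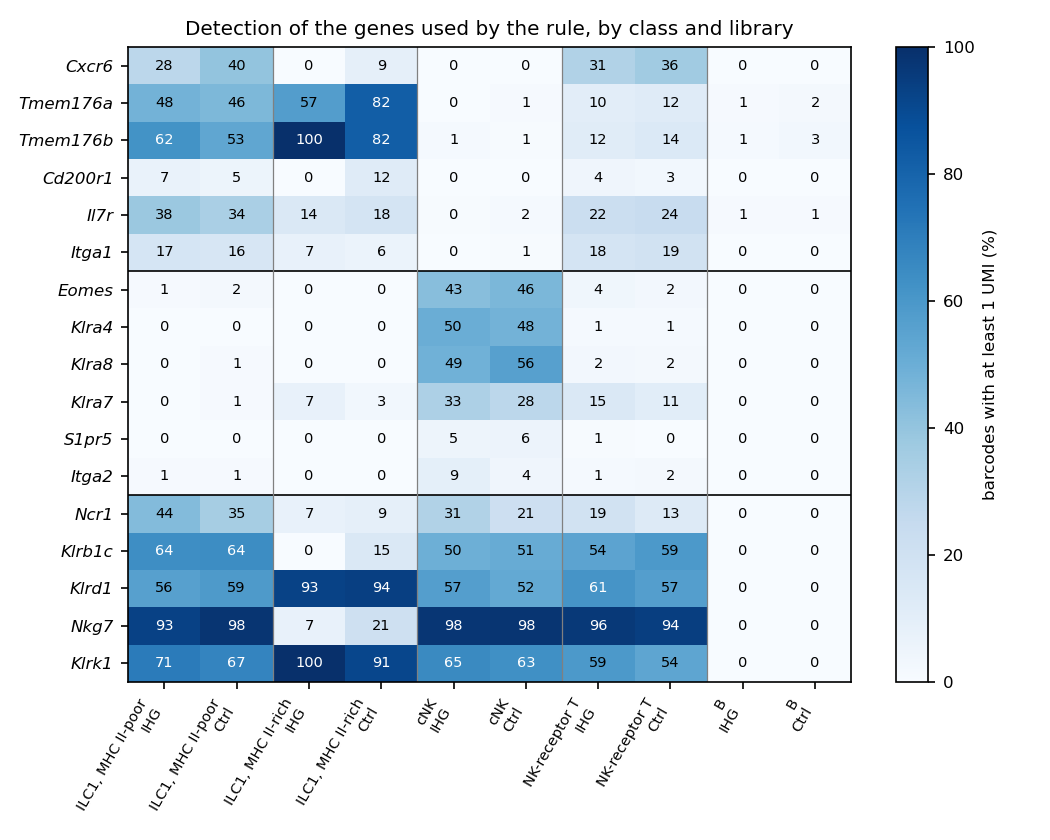
Percent of barcodes with at least 1 UMI of each gene of the rule (rows: ILC1 genes, cNK genes, NK genes) in 5 classes, the IHG column left of the Ctrl column in each. Nkg7 reached 95.3% of the MHC class II-poor members and 16.7% of the rich ones, and Klrd1 showed the reverse order with 57.3% and 93.8%. B cells have no NK gene by definition.

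T-cell receptor RNA was present although the rule required no Cd3 UMI. Of the 192, 156 had a UMI of Trac, Trbc1, Trbc2 or a co-receptor gene. Trac, the alpha chain constant region, was found in 12.5% of the 192, against 4.89% of cNK, 49.6% of 701 NK-receptor T cells and 1.66% of B cells. NK-receptor T cells were barcodes with at least 2 Cd3 UMIs, no Cd4 or Cd8 UMI and at least 2 NK genes. Trbc1 was found in 56.8% of the 192, 30.2% of cNK, 56.5% of those T cells and 0.721% of B cells. Trbc2 was found in 52.1% of the 192, 20.4% of cNK, 80.3% of the T cells and 1.46% of B cells. Cd6, a T-cell surface protein, had no UMI in the 192. Trbc1 and Trbc2 are nearly identical in sequence, so the split of reads between them is uncertain, and whether T cells with undetected Cd3 are among the members was not tested. Leaving out every ILC1 and cNK barcode with a UMI of Trac, Trbc1, Trbc2, Cd4, Cd8a or Cd8b1 left 33 IHG and 42 Ctrl members, of which 12 in IHG and 27 in Ctrl were MHC class II-rich. With those left out too, 21 IHG and 15 Ctrl members remained.

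Genes of other lineages were uneven. Il1rl1, Il5 and Il13 of ILC2 had no UMI in the 192, nor had the macrophage genes C1qa, C1qb, Csf1r and Cd68. Other ILC2 genes did: Gata3 had 27 UMIs in IHG and 44 UMIs in Ctrl, and Areg 23 UMIs and 13 UMIs. Calca had 12 UMIs over both libraries. Summed over 9 ILC2 genes the 192 had 158 CPM (UMIs per 1000000 UMIs of the class) in IHG and 234 CPM in Ctrl. All cNK had 77.2 CPM in IHG and 80.4 CPM in Ctrl. Summed over 12 myeloid genes the 192 had 213 CPM in IHG and 1182 CPM in Ctrl, and all cNK had 577 CPM in IHG and 1073 CPM in Ctrl. Among these 12 are H2-Aa and Cd74, which the choice of the 192 kept low. Of the 349 Ctrl UMIs of the list in the 192, S100a8 gave 112 and S100a9 gave 169, each from 4 Ctrl members. Over 8 hepatocyte genes the 192 had 0 CPM in IHG and 6.77 CPM in Ctrl. All 40 UMIs of Il22 in the members came from 1 IHG barcode.

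Members made up 1.68% of the kept IHG barcodes (114 of 6786, exact 95% interval 1.39 to 2.01%) and 2.43% of the kept Ctrl barcodes (126 of 5195, 2.02 to 2.88%). The log2 ratio of IHG over Ctrl was -0.53, with an exact interval of -0.91 to -0.15. B cells made up 3036 of the kept barcodes in IHG and 1538 in Ctrl, and a share without them was not computed. Counting only MHC class II-poor members, over the same kept barcodes, the shares were 1.47% in IHG and 1.77% in Ctrl, and the log2 ratio was -0.27 (-0.69 to 0.16), an interval that includes 0. With 1 library a group there is no test, and intervals cover counting error only. Of members plus cNK, members made up 31.1% in IHG and 38.9% in Ctrl, a log2 ratio of -0.32 (-0.70 to 0.06), and without the rich barcodes 28.8% and 32.4%, a log2 ratio of -0.17.

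The comparison with cNK asked which genes outside the rule set these cells apart from the blood-borne NK lineage. ILC1 had higher levels of the liver ILC1 genes Tnfsf10, Cd7, Gpr183, Il21r, Ckb and Xcl1, of Rora and Ikzf2, and of Ltb and Tnf. They had lower levels of the cNK cytotoxic genes Gzma and Prf1, of Zeb2, Irf8 and Klf2, and of the adhesion genes Itgam and Itga4. UMIs were summed for each class and library and tested with edgeR's quasi-likelihood method, with the library as a block and Benjamini-Hochberg adjustment (threshold 0.05). With all members, 353 genes outside the rule were higher in ILC1 than in cNK (6.44% of 5483 tested) and 198 lower (3.61%). With the 192, 237 were higher (4.75% of 4994) and 262 lower (5.25%). Of the lists of higher genes 156 were shared, 44.2% of the first and 65.8% of the second, and of the lists of lower genes 157, 79.3% and 59.9%. The spread comes from 2 libraries that also differ in maternal group, and the classes were sorted by genes measured in the same barcodes.

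Of 15 ILC1 marker genes outside the rule, 14 were tested in the 192 and 12 were higher in ILC1 and 0 lower, with a median log2 fold change of 2.91 against -0.01 over all genes. With all members 12 were higher and 1 lower, with a median of 2.30. Tnfsf10, the gene of TRAIL, which triggers death of target cells, stood at 57.9 CPM in IHG and 77.9 CPM in Ctrl ILC1, against 3.38 CPM in IHG and 2.28 CPM in Ctrl cNK. Both ILC1 libraries were above both cNK libraries, with a log2 fold change of 4.29 ± 0.57 (SE) in the 192 and 3.25 ± 0.53 in all members. From here CPM are those of the 192 and of cNK without rich barcodes, and 2 fold changes are those of the 192 and then of all members, while a single one is that of the 192.

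Ckb, the brain-type creatine kinase, was at 146 CPM (IHG) and 129 CPM (Ctrl) in ILC1, against 1.69 CPM (IHG) and 6.84 CPM (Ctrl) in cNK (log2 fold change 4.95 ± 0.45, and 4.79 ± 0.37 in all members). Cd7, a surface receptor of NK and T lineages, was at 1054 CPM (IHG) and 1148 CPM (Ctrl) in ILC1, against 184 CPM (IHG) and 203 CPM (Ctrl) in cNK. Its log2 fold change was 2.38 ± 0.14 in the 192 and 1.97 ± 0.15 in all members. For these genes the classes did not overlap in either library. Gpr183, a receptor for oxysterols, had 143 CPM (IHG) and 108 CPM (Ctrl) in ILC1 and 11.8 CPM (IHG) and 2.28 CPM (Ctrl) in cNK. Il21r, the interleukin-21 receptor, had 234.5 CPM (IHG) and 179.5 CPM (Ctrl) in ILC1 and 27.0 CPM (IHG) and 13.7 CPM (Ctrl) in cNK. Rgs1, a regulator of G protein signalling, Cd160, a receptor for HVEM, Inpp4b, a phosphoinositide phosphatase, and Ltb, lymphotoxin beta, were also higher, by 1.70, 2.65, 3.90 and 1.74 on the log2 scale. Asb2 had 17 UMIs in ILC1 and none in cNK, at least 9.37-fold higher with the floor of 3 counts taken over the group.

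The other 2 tested markers did not pass in the 192. Cd69, an activation and residency marker, had 478 CPM (IHG) and 542 CPM (Ctrl) in ILC1 and 415 CPM (IHG) and 570 CPM (Ctrl) in cNK (log2 fold change -0.07, adjusted p = 0.844 by edgeR). Il18r1, an interleukin-18 receptor chain, had a log2 fold change of -0.62 (adjusted p = 0.234) and was lower in all members (-0.99, adjusted p = 0.0473). Zfp683, the gene of the residency factor Hobit, was too low to be tested, with 2 UMIs in IHG and 1 UMI in Ctrl.

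Of 17 cNK marker genes outside the rule, 16 were tested in the 192; 13 were lower in ILC1 and 1 higher, with a median log2 fold change of -2.60. With all members 14 were lower and 1 higher, with a median of -2.37. Gzma, granzyme A, was at 1182 CPM (IHG) and 1250 CPM (Ctrl) in ILC1, against 8821 CPM (IHG) and 7098 CPM (Ctrl) in cNK (log2 fold change -2.84 ± 0.10, and -3.24 ± 0.13 in all members). Prf1, perforin, was at 82.2 CPM (IHG) and 112 CPM (Ctrl) in ILC1, against 380 CPM (IHG) and 365 CPM (Ctrl) in cNK (log2 fold change -2.08 ± 0.21, and -2.49 ± 0.21 in all members). Both lytic genes were lower in either library, while Gzmb, granzyme B, was not separated in the 192. Gzmb had 1194 CPM (IHG) and 1734 CPM (Ctrl) in ILC1 and 1736 CPM (IHG) and 1438 CPM (Ctrl) in cNK (log2 fold change -0.26, adjusted p = 0.139), and it was lower with all members (-0.71, adjusted p = 0.000192).

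Itgam, the CD11b integrin of mature NK cells, had a log2 fold change of -3.42 ± 0.51 in the 192 and -1.91 ± 0.38 in all members, and Klrg1, an inhibitory receptor of mature NK cells, one of -3.55 ± 0.64 and -4.14 ± 0.60. Cma1, a mast cell type chymase, had 6.09 CPM (IHG) and 0 CPM (Ctrl) in ILC1, against 152 CPM (IHG) and 191 CPM (Ctrl) in cNK. Klra1, Klra3 and Klra9 were also lower (log2 fold changes -4.73, -2.87 and -2.36), though Ly49 genes are near copies of each other and their counts are uncertain. The gene that went the other way was Emb, an adhesion molecule of the immunoglobulin family, with 545 CPM (IHG) and 420 CPM (Ctrl) in ILC1 and 155 CPM (IHG) and 221 CPM (Ctrl) in cNK.

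**Figure D3:**
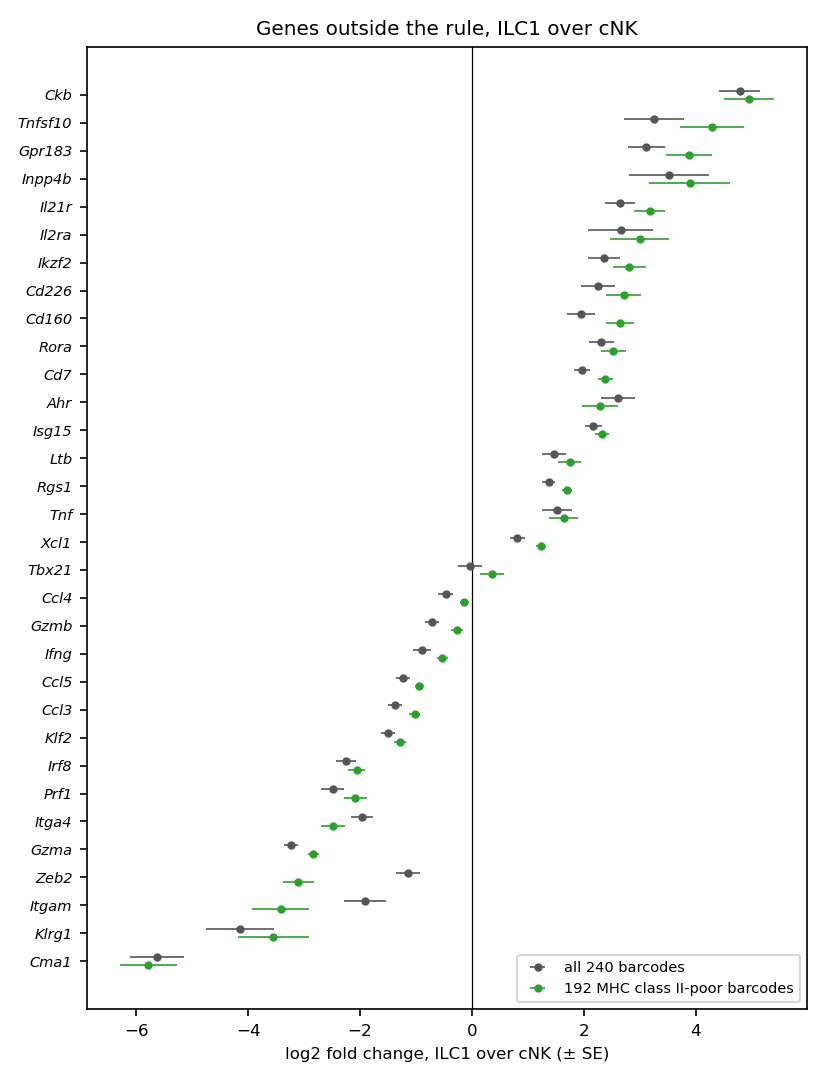
log2 fold change of ILC1 over cNK for genes outside the rule, with its SE, for all 240 members (grey) and the 192 MHC class II-poor ones (green). Ckb (4.95), Tnfsf10 (4.29) and Gpr183 (3.88) lie at the top for the 192, and Klrg1 (-3.55) and Cma1 (-5.78) at the bottom; Zeb2 moves most between the fits (-3.10 and -1.15).

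Of 22 transcription factors, 20 were tested; in the 192, 6 were higher in ILC1 and 4 lower, with a median log2 fold change of 0.33. With all members 5 were higher and 4 lower, with a median of -0.02. Rora, a nuclear receptor of innate lymphoid cells, was at 341 CPM (IHG) and 339 CPM (Ctrl) in ILC1, against 57.4 CPM (IHG) and 47.8 CPM (Ctrl) in cNK (log2 fold change 2.53 ± 0.22, and 2.31 ± 0.23 in all members). Ikzf2 (Helios), Ahr (the aryl hydrocarbon receptor) and Maf were higher by 2.81, 2.29 and 1.69. Id2, which ILC and NK cells need, was slightly higher (0.33, adjusted p = 0.0277) in the 192 but not in all members (0.15, adjusted p = 0.582). Id3 was higher by 2.10 in the 192, at 18.3 CPM (IHG) and 61.0 CPM (Ctrl), and at 190 CPM (IHG) and 260 CPM (Ctrl) with the rich members in.

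Zeb2, a factor of terminal NK maturation, was at 27.4 CPM (IHG) and 33.9 CPM (Ctrl) in ILC1, against 231 CPM (IHG) and 248 CPM (Ctrl) in cNK. Its log2 fold change was -3.10 ± 0.28 in the 192 and -1.15 ± 0.21 in all members, where ILC1 had 71.7 CPM (IHG) and 143 CPM (Ctrl). Irf8, at 231 CPM (IHG) and 342 CPM (Ctrl) in ILC1 and 1052 CPM (IHG) and 1112 CPM (Ctrl) in cNK, had a log2 fold change of -2.06 ± 0.15 (-2.25 ± 0.18 in all members). Prdm1 (Blimp-1) and Tcf7 (TCF-1) had log2 fold changes of -1.21 and -1.14. Tbx21, the gene of T-bet, which both lineages need, had 152 CPM (IHG) and 203 CPM (Ctrl) in ILC1 and 115 CPM (IHG) and 137 CPM (Ctrl) in cNK. It did not pass, with a log2 fold change of 0.35 in the 192 (adjusted p = 0.356) and -0.04 in all members (adjusted p = 0.953).

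Secreted factors split. Of 11 tested cytokine, chemokine and death ligand genes, 5 were higher and 3 lower in the 192, with a median of 0.13. With all members 4 of 10 were higher and 4 lower, with a median of -0.37. Xcl1, which attracts cross-presenting dendritic cells, was at 6027 CPM (IHG) and 6262 CPM (Ctrl) in ILC1, against 2106 CPM (IHG) and 2650 CPM (Ctrl) in cNK (log2 fold change 1.24 ± 0.09, and 0.81 ± 0.14 in all members). Without T-cell receptor UMIs it was -0.38 over the 75 members left, of which 39 were MHC class II-rich, and 1.26 with those left out too. Tnf was at 168 CPM (IHG) and 152 CPM (Ctrl) in ILC1, against 40.5 CPM (IHG) and 54.7 CPM (Ctrl) in cNK. Ifng, interferon gamma, was at 1483 CPM (IHG) and 1223 CPM (Ctrl) in ILC1, against 1678 CPM (IHG) and 1889 CPM (Ctrl) in cNK. It was lower by a small margin (log2 fold change -0.53 ± 0.10, and -0.90 ± 0.16 in all members). The chemokine genes Ccl5 and Ccl3 had log2 fold changes of -0.94 and -1.03. Ccl4 had 13313 CPM (IHG) and 11853 CPM (Ctrl) in ILC1 and 13050 CPM (IHG) and 12051 CPM (Ctrl) in cNK; it did not pass in the 192 (-0.13, adjusted p = 0.355) and was lower in all members (-0.47, adjusted p = 0.0173).

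**Figure D4:**
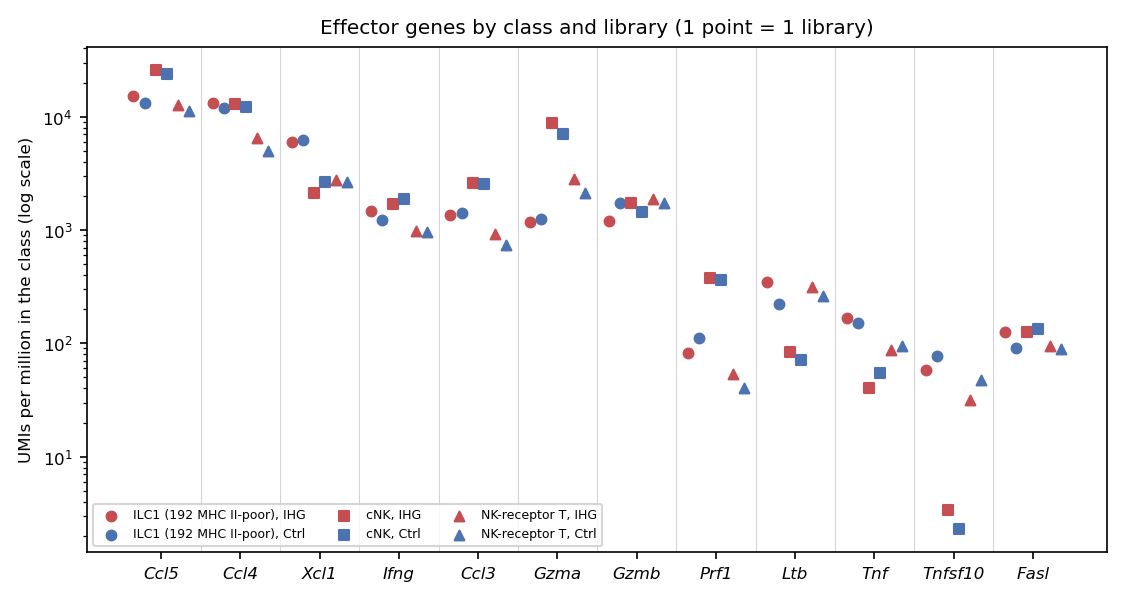
CPM, that is UMIs per 1000000 of the class, on a log axis, for 12 effector genes in ILC1 (the 192), cNK and NK-receptor T cells without MHC class II-rich barcodes; each point is 1 library, IHG left of Ctrl. Gzma lies at 1182 and 1250 in ILC1 and at 8821 and 7098 in cNK, while Ccl4 lies within 11853 to 13313 in both.

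Receptors of NK cells and of cytokines also differed. Of 25 NK receptor and adaptor genes, 20 were tested; in the 192, 5 were higher and 6 lower, with a median of -0.11, and with all members also 5 and 6, with a median of -0.26. Cd226, the activating receptor DNAM-1, Klrb1b, an inhibitory C-type lectin receptor, and Klrc1, the gene of NKG2A, were higher by 2.71, 1.65 and 1.45 (Cd226 by 2.26 in all members). Cd247, the zeta signalling chain, had a log2 fold change of -2.46 and Klri2 one of -1.57. Of 13 tested cytokine receptors 3 were higher and 2 lower in the 192, with a median of 0.17. With all members 2 of 14 were higher and 3 lower, with a median of 0.04. Il2ra, the high-affinity interleukin-2 receptor chain, was at 76.1 CPM (IHG) and 44.0 CPM (Ctrl) in ILC1, against 3.38 CPM (IHG) and 11.4 CPM (Ctrl) in cNK. Il12rb2 and Il18rap, receptor chains for interleukins 12 and 18, had log2 fold changes of -1.09 and -0.84. Of 16 tested homing and residency genes 1 was higher, Itgb7 (1.42), and 5 were lower in the 192, with a median of -0.30. With all members 3 were higher and 5 lower, with a median of -0.38. Itga4, an integrin chain of VLA-4, was at 91.4 CPM (IHG) and 50.8 CPM (Ctrl) in ILC1, against 355 CPM (IHG) and 381 CPM (Ctrl) in cNK.

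Interferon-response genes were higher in ILC1 for 5 of 14 tested in the 192 and 0 lower, with a median of 0.53. With all members 9 of 15 were higher and 1, Irf7, was lower, with a median of 1.33. Isg15, a ubiquitin-like protein, was at 1444 CPM (IHG) and 833 CPM (Ctrl) in ILC1, against 268 CPM (IHG) and 146 CPM (Ctrl) in cNK (log2 fold change 2.33 ± 0.13, and 2.17 ± 0.15 in all members). Ifit1, which binds foreign RNA, was at 225 CPM (IHG) and 88.1 CPM (Ctrl) in ILC1, against 16.9 CPM (IHG) and 13.7 CPM (Ctrl) in cNK (log2 fold change 3.23 ± 0.34, and 2.74 ± 0.31 in all members). Levels in IHG and Ctrl ILC1 differed for both genes, and each was above both cNK values.

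Lists of early activation and metabolism had medians near that of all genes, while the proliferation list did not in the 192. Of 16 immediate-early and heat shock genes 3 were higher and 4 lower in both fits, with medians of -0.12 in the 192 and -0.13 in all members. Atf3 was higher by 0.76, and Nr4a1 had a log2 fold change of -0.81. Of 12 NF-kB feedback genes 1 was higher, Tnfaip3 (0.45), and 3 lower in the 192, among them Nfkbia (-0.66), with a median of -0.06. With all members 0 were higher and 2 lower, with a median of -0.04. Of 14 glycolysis genes 0 were higher and 1 lower, and of 15 oxidative phosphorylation genes 0 and 2, in the 192, with medians of 0.06 and -0.06. With all members the counts were 1 and 0, and 0 and 0, with medians of 0.09 and 0.04. Of 8 tested proliferation genes 1, Hmgb2 (0.95), was higher in the 192, with a median of 0.96, and 2 in all members, with a median of 0.02. Of 10 tested granule genes, which overlap the marker lists, 3 were higher in the 192, among them Srgn, a granule proteoglycan (0.62), and 2 lower, with a median of 0.07. With all members 2 were higher and 4 lower, with a median of -0.19.

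Ranked by fold change in the 192 with at least 50 CPM in a class, the highest genes were Tcrg-C4, Areg, Gm36723, Ckb, Tnfsf10, Mmp9, S100a4, Gpr183, Gzmc and Klk8. Tcrg-C4, a gamma chain constant region of the T-cell receptor, had 44 UMIs in ILC1 and none in cNK, at least 24.3-fold higher. S100a4, a calcium-binding protein, was at 600.0 CPM (IHG) and 833 CPM (Ctrl) in ILC1, against 49.0 CPM (IHG) and 34.2 CPM (Ctrl) in cNK (log2 fold change 3.90 ± 0.19). Areg, amphiregulin, an epidermal growth factor family ligand, had 70.1 CPM (IHG) and 44.0 CPM (Ctrl) in ILC1, but its UMIs came from 5 IHG and 4 Ctrl members. Gzmc, granzyme C, had 116 CPM (IHG) and 948 CPM (Ctrl) in ILC1, and 1 Ctrl member held 185 of its 280 Ctrl UMIs. Among the lowest were Khdc1a, Cma1, Klrg1, Itgam, Dhrs3, Nrarp, Sh2d1a, Borcs7 and Zeb2. Khdc1a had no UMI in ILC1 and 84 in cNK, at least 16.9-fold lower in ILC1.

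With all 240 members the highest-ranked genes included chemokine and lectin genes of dendritic cells and macrophages: Eps8, AA467197, Cxcl9, Cd300c2, Cd209a, Ccl17, Ctsh, Tnip3, Ckb and Clec10a. Cd209a was at 178 CPM (IHG) and 210 CPM (Ctrl) with all members, against 0 CPM (IHG) and 6.35 CPM (Ctrl) in cNK, and at 0 in the 192. Of the lowest 10 with all members, Khdc1a, Cma1, Klrg1, Sh2d1a, Nrarp and Dhrs3 were also among the lowest 10 in the 192, and the others were Gzma, Klra3, Adamts14 and Tmem80. T-cell genes outside the rule were higher in ILC1 than in cNK for 4 of 12 tested and lower for 1 (Trdc) in both fits, with medians of 1.24 in the 192 and 0.85 in all members. Trbc2 was at 478 CPM (IHG) and 454 CPM (Ctrl) in ILC1, against 154 CPM (IHG) and 114 CPM (Ctrl) in cNK.

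The comparison with NK-receptor T cells placed the same cells against lymphocytes that share their NK genes and carry Cd3. ILC1 had more of the innate signalling adaptors Tyrobp and Fcer1g, of Irf8, and of the chemokine genes Ccl4 and Xcl1, and less of the T-cell genes Trac, Cd40lg, Cd6 and Il4. Xcl1 turned, and Ccl4 no longer passed, over the 75 members without T-cell receptor UMIs, of which 39 were MHC class II-rich. With all members 355 genes were higher (6.47% of 5483) and 167 lower (3.05%), and with the 192, 203 were higher (4.06% of 4994) and 185 lower (3.7%). The fit, and so its spread, is the one used against cNK, and the ILC1 sums are shared. Of 12 tested T-cell genes 0 were higher in the 192 and 10 lower, with a median log2 fold change of -2.07 against -0.02 over all genes. With all members 0 were higher and 11 lower, with a median of -2.40. Trac was at 57.9 CPM (IHG) and 40.6 CPM (Ctrl) in ILC1, against 288 CPM (IHG) and 370 CPM (Ctrl) in the T cells (log2 fold change -2.80 ± 0.23, and -3.34 ± 0.25 in all members). Cd40lg, the CD40 ligand of helper T cells, and Cd6 had no UMI in ILC1, at least 15.4-fold and 11.5-fold lower. Il4, interleukin-4, was at 3.05 CPM (IHG) and 0 CPM (Ctrl) in ILC1, against 58.8 CPM (IHG) and 69.7 CPM (Ctrl). Zbtb16, the gene of PLZF, which directs innate-like T cells, had 6.09 CPM (IHG) and 3.39 CPM (Ctrl) in ILC1, against 22.03 CPM (IHG) and 35.7 CPM (Ctrl).

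Of 11 tested effector genes 6 were higher than in the T cells and 0 lower in the 192, with a median of 0.70. With all members 2 of 10 were higher, Ccl4 and Xcl1, and 0 lower, with a median of 0.20. Ccl4 was at 6487 CPM (IHG) and 5006 CPM (Ctrl) in the T cells (log2 fold change 1.05 ± 0.08) and Xcl1 at 2779 CPM (IHG) and 2632 CPM (Ctrl) (1.10 ± 0.09). With all members both were higher by 0.62. Over the members without T-cell receptor UMIs, the log2 fold change was -0.65 for Xcl1 (adjusted p = 0.00702 by edgeR) and -0.25 for Ccl4 (adjusted p = 0.475). With the MHC class II-rich ones left out as well, Xcl1 was at 0.93 (adjusted p = 1.92e-05) and Ccl4 at 0.78 (adjusted p = 0.0047). Of 20 transcription factors 8 were higher and 1, Zbtb16, lower, with a median of 0.34, and with all members 7 and 4, with a median of 0.30. Irf8, lower than in cNK, was higher than in the T cells, which had 102 CPM (IHG) and 68.1 CPM (Ctrl) (log2 fold change 1.65 ± 0.18, and 1.35 ± 0.20 in all members). Tbx21 passed in the 192 (0.79, adjusted p = 0.00434) and not in all members (0.29, adjusted p = 0.462). Of 20 NK receptor and adaptor genes 8 were higher and 2 lower, with a median of 0.71, and with all members 7 and 4, with a median of 0.32. Tyrobp (DAP12) was at 1901 CPM (IHG) and 2161 CPM (Ctrl) in ILC1, against 949 CPM (IHG) and 852 CPM (Ctrl) in the T cells, and Klrb1b at 347 CPM (IHG) and 440 CPM (Ctrl) against 95.5 CPM (IHG) and 87.1 CPM (Ctrl).

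Of 14 tested ILC1 markers, 5 were higher and 2 lower in the 192, with a median of 0.44, and with all members 2 and 2, with a median of 0.16. In the 192 Xcl1, Gzmc, Cd7, Rgs1 and Gpr183 were higher, and Cd69 and Inpp4b lower. Tnfsf10, Il21r, Ckb and Ltb, which were higher than in cNK, did not pass against the T cells in the 192. With all members Xcl1 and Ckb were higher, and Cd69 and Inpp4b again lower. Of 16 cNK markers 3 were higher and 5 lower in the 192, with a median of -0.16, and with all members 4 and 6, with a median of -0.21. Gzma was lower than in the T cells as well, which had 2830 CPM (IHG) and 2136 CPM (Ctrl) (log2 fold change -1.11 ± 0.10, and -1.56 ± 0.12 in all members). The highest-ranked genes of the 192 were Retnlg, Areg, Slpi, Vegfa and S100a8. Retnlg, a neutrophil gene, came from 2 Ctrl members, with 0 CPM in IHG and 234 CPM in Ctrl ILC1. The lowest-ranked were Cd40lg, Cd6, Il4, Klra1 and Tcrg-C1. With all members the highest were Ccl17, Clec10a, Mgl2, Cd209a and Cxcl9, genes of dendritic cells and macrophages, and the lowest included Klra5. Of 14 tested interferon-response genes 2 were higher than in the T cells in the 192, Isg15 and Ifit1, and 1, Ifi27l2a, was lower, with a median of 0.12. With all members 5 of 15 were higher and 0 lower, with a median of 0.58. Ifi27l2a showed how far the rich barcodes reached: it was at 21.3 CPM (IHG) and 74.5 CPM (Ctrl) in the 192, against 398 CPM (IHG) and 359 CPM (Ctrl) in the T cells (log2 fold change -3.11 ± 0.28). With all members ILC1 had 317 CPM (IHG) and 232 CPM (Ctrl), and it did not pass (-0.51, adjusted p = 0.198).

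The last comparison set members of the IHG library against those of the Ctrl library. In the 192, the interferon-response genes Ifit1, Ifit3, Irf7 and Ifi47 were past 2-fold higher in IHG members and Bst2 and Ifi27l2a past 2-fold lower, both of these through 1 Ctrl barcode. Isg15 and Ltb were higher by less than 2-fold, and Csf2 by more. Gzmb was lower by less than 2-fold and Gzmc by more. Over the members without T-cell receptor UMIs the ratios of Ifit1 and Irf7 were below 0, that of Ifit3 was 0.11 and that of Gzmb was above 0. These are ratios between single pooled libraries with no replicate check, so they describe the libraries and no p is given. Counting past 2-fold with at least 20 UMIs, 129 genes were higher in IHG (2.97% of 4347) and 225 lower (5.18%) with all members. In the 192, 85 were higher (2.67% of 3188) and 99 lower (3.11%). The Ctrl members held 34 of the 48 MHC class II-rich barcodes, whose part in the first counts was not tested beyond leaving them out.

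Of 18 interferon-response genes, 10 had at least 20 UMIs in the 192; 4 were past 2-fold higher in IHG and 2 past 2-fold lower, with a median log2 ratio of 0.60 against -0.03 over all genes. With all members 6 of 15 were past 2-fold higher and 1 lower, with a median of 0.55. Isg15 had 474 UMIs in 59 of 100 IHG members and 246 UMIs in 54 of 92 Ctrl members, a log2 ratio of 0.79 (95% counting interval 0.57 to 1.02), and 1.11 (0.91 to 1.32) with all members. Without MHC class II-rich barcodes the same ratio was 0.87 (0.45 to 1.32) in cNK and 0.73 (0.55 to 0.92) in NK-receptor T cells, so Isg15 was higher in IHG in each class. Ifit1 had 74 UMIs in IHG and 26 UMIs in Ctrl (1.34, 0.69 to 2.06), and its ratio was 0.26 (-1.30 to 2.05) in cNK and 0.45 (-0.05 to 0.97) in the T cells, intervals that overlap that of ILC1. Irf7, a master regulator of type I interferon, had 38 UMIs in IHG and 10 UMIs in Ctrl, and Ifi47, an interferon-inducible GTPase, 31 UMIs in IHG and 11 UMIs in Ctrl. With all members the ratios were 1.21 for Ifit1, 1.24 for Irf7, 1.22 for Ifi47 and 1.54 for Ifit3. Over the 33 IHG and 42 Ctrl members without T-cell receptor UMIs, they were -0.23 (-1.70 to 1.04) for Ifit1 and -0.62 (-2.84 to 1.02) for Irf7, against 0.84 (0.40 to 1.28) for Isg15. Ifit3 was then at 0.11 (-1.53 to 1.58) and Ifi47 at 0.86 (-0.51 to 2.26). Among the 21 IHG and 15 Ctrl members that were neither MHC class II-rich nor had T-cell receptor UMIs the Isg15 ratio was 0.72 (0.11 to 1.38), while that of Irf7 was -2.004 (-8.04 to 0.92). In these members Ifit1 was at 2.75 (from -1.02, no upper limit), Ifit3 at 3.49 (from 0.11, no upper limit) and Ifi47 at 1.02 (-0.84 to 3.69). Ifit3 had 28 UMIs in 9 IHG members and 1 UMI in Ctrl, a log2 ratio of 4.09 (2.06 to 10.0).

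The ratios of the 2 genes past 2-fold lower were above 0 without 1 Ctrl barcode, with intervals that include 0. Bst2, the tetherin gene, had 23 UMIs in IHG and 45 UMIs in Ctrl, a log2 ratio of -1.11 (-1.91 to -0.37). Of these, 1 Ctrl barcode held 29, and without it the ratio was 0.33 (-0.64 to 1.37). With all members Bst2 was at -0.46, with a margin of 2 genes at 0.22 and with at least 3 NK genes at 0.81. Ifi27l2a had 7 UMIs in IHG and 22 UMIs in Ctrl, a log2 ratio of -1.74 (-3.28 to -0.53), while with all members it was 0.45 (0.09 to 0.81). In the 192, 17 of its UMIs were in 1 Ctrl barcode, and without it the ratio was 0.27 (-1.56 to 2.31).

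**Figure D5:**
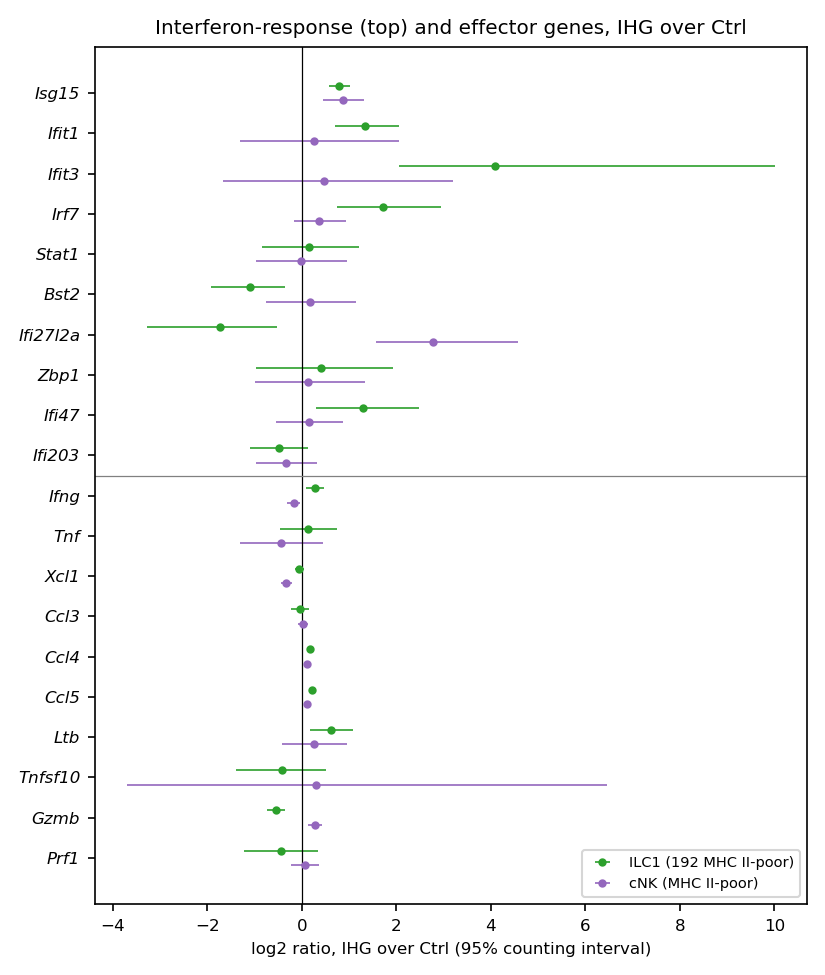
log2 ratio of IHG over Ctrl with its 95% counting interval for the 10 interferon-response genes with at least 20 UMIs (above the line) and 10 effector genes, in the 192 ILC1 members (green) and in cNK (purple), without MHC class II-rich barcodes. Isg15 is at 0.79 in ILC1 and 0.87 in cNK, while Ifi27l2a is at -1.74 in ILC1 (0.27 without 1 Ctrl barcode) and 2.77 in cNK.

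Among effector genes of the 192, 7 of 10 with at least 20 UMIs had a ratio above 0 and 1, Csf2, was past 2-fold, with a median of 0.19. With all members 9 of 10 were above 0, again with Csf2 past 2-fold, with a median of 0.61. Ifng had 487 UMIs in IHG and 361 UMIs in Ctrl, a log2 ratio of 0.28 (0.08 to 0.48), and 0.71 (0.52 to 0.91) with all members. Without 1 IHG barcode with 62 UMIs, the ratio in the 192 was 0.11 (-0.10 to 0.32). Ltb had 113 UMIs in IHG and 66 UMIs in Ctrl (0.62, 0.17 to 1.08, and 0.90 with all members). Csf2, the gene of GM-CSF, had 30 UMIs in 10 IHG members and 10 UMIs in 6 Ctrl members (1.39, 0.36 to 2.63, and 1.72 with all members). Without 1 IHG barcode with 9 UMIs, Csf2 in the 192 was at 0.90 (-0.22 to 2.18). Tnf (0.13, -0.46 to 0.74) and Tnfsf10 (-0.42, -1.39 to 0.51) had intervals that include 0. Gzmb had 392 UMIs in IHG and 512 UMIs in Ctrl, a log2 ratio of -0.54 (-0.73 to -0.35), and with all members -0.08 (-0.27 to 0.11). Over the members without T-cell receptor UMIs it was 0.75 (0.31 to 1.18), and with the MHC class II-rich ones left out too -0.40 (-0.84 to 0.03). Of 10 granule genes 0 were past 2-fold higher and 2 lower in the 192, Gzmc and Lamp1, with a median of -0.38; the same 2 were lower with all members, with a median of -0.12. The Gzmc ratio of -3.02 became -1.50 (-2.10 to -0.96) without 1 Ctrl barcode with 185 UMIs.

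For the other lists, in the 192 the medians were -0.15 for 18 transcription factors, -0.18 for 16 NK receptors, -0.03 for 16 immediate-early genes, -0.12 for 11 NF-kB genes, 0.00 for 14 glycolysis genes and -0.05 for 15 oxidative phosphorylation genes, and at most 1 gene of each was past 2-fold in either direction. With all members the medians of these lists were 0.04, 0.05, 0.13, -0.02, 0.01 and 0.05.

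Ranked by ratio in the 192 with at least 50 UMIs, the genes highest in IHG were 5031425E22Rik, Puf60, Ifit1, AC149090.1, Eny2, Gm10076, Capns1 and Eml4. 5031425E22Rik, a long noncoding RNA, had 50 UMIs in 33 IHG members and 15 UMIs in 10 Ctrl members (1.55, 0.73 to 2.52). Puf60, a splicing factor, had 39 UMIs in IHG and 12 UMIs in Ctrl (1.51, 0.58 to 2.62). The lowest were Dqx1, Retnlg, S100a9, S100a8, Slpi, Gzmc, Cxcl2 and Stmn1, and several rest on single barcodes. Dqx1 had no UMI in IHG and 78 in Ctrl, at least 28.9-fold lower, with 77 in 1 barcode. Retnlg had none in IHG and 69 in Ctrl, at least 25.6-fold lower, with 60 in 1 barcode. The neutrophil genes S100a8 and S100a9 had 4 UMIs and 2 UMIs in IHG, against 112 UMIs and 169 UMIs in Ctrl, found in 4 Ctrl barcodes each. Without barcodes of high doublet score the ratios with all members were 0.85 (-1.43 to 3.62) for S100a8 and 0.20 (-2.70 to 3.10) for S100a9, intervals that include 0. With all members the highest were Pdia4, 5031425E22Rik, Ddx18, Ncr1, Puf60, Polr2l, Irf7 and Ifi47, of which Ncr1 belongs to the rule. The lowest were Spp1, Dqx1, Retnlg, Clu, Il12b, C3, S100a9 and Apoe. Spp1, osteopontin, had 1 UMI in IHG and 260 UMIs in Ctrl with all members, 130 of them in 1 barcode.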

How the data were processed

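The adult libraries were 10x Genomics 3' single-cell libraries. The deposited values are UMI counts per gene and barcode, which the authors obtained, per the file headers, from version 5.0.0 of Cell Ranger; the submitters' processing notes name mm10, Cell Ranger and Seurat. Each group was 1 pooled library, so IHG over Ctrl has ratios with exact 95% conditional intervals (0.5 added to each count for the ratio) and no test; intervals and floors (3 counts) cover counting error only. Classes were compared on UMI sums per library with edgeR 4.0.16 (glmQLFit, TMM, filterByExpr, library as block, 6 sums, Benjamini-Hochberg) in R 4.3.3, tested on simulated data. Genes of the rule were left out of called counts. DESeq2 1.42.0 was an alternative. The p-values rest on how the class differences varied between 1 IHG and 1 Ctrl library, each a pool of 3 animals. They do not measure the spread between animals. No doublets were removed in the main values; Scrublet scores (scanpy 1.11.5) above the 95th percentile of a library were left out in an alternative.

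The members and gene lists were chosen with earlier results of these data known. Named genes were the genes of the rule, list members by mean level or passing the test, the 10 highest and 10 lowest against cNK and 5 and 5 against T cells (at least 50 CPM in a class, same direction in both libraries), and 8 and 8 for IHG over Ctrl (at least 50 UMIs, interval leaving out 0). Dendritic cell genes in the label check (Cd209a, Ccl22, Flt3) were picked after their values were seen, as were the alternatives without MHC class II-rich barcodes and without the barcode that held the most UMIs of a gene. Genes are those of the deposited table of 32285; promoter sequences are RefSeq's on GRCm38.p6. Some genes that the rule for named genes would name are not reported here.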

Additional observations from a re-analysis of the deposited data

Results flagged for a closer look

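The ILC1 rule, applied to the fetal libraries (E18.5) that no comparison used, was met by 34 barcodes in fetal IHG livers and 6 in fetal Ctrl livers, or 0.415% of 8192 and 0.0779% of 7701 kept barcodes. The cNK rule was met by 0 in both. Of these, 4 in fetal IHG and 1 in fetal Ctrl were MHC class II-rich.

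Several IHG over Ctrl ratios had opposite signs in ILC1 and in another class of the same libraries, without MHC class II-rich barcodes. The difference between classes was not tested for any of them. Ifng had log2 ratios of 0.28 in ILC1, or 0.11 (-0.10 to 0.32) without 1 IHG barcode, and -0.17 in cNK. Gzmb had -0.54 in ILC1, 0.27 in cNK and 0.13 in NK-receptor T cells. Csf2 had 1.39 in ILC1, or 0.90 (-0.22 to 2.18) without 1 IHG barcode, and -1.18 in cNK. Ifi27l2a had -1.74 in ILC1, or 0.27 without 1 Ctrl barcode that held 17 of 29 UMIs, and 2.77 in cNK. Gzmc had -3.02 in ILC1, or -1.50 without 1 Ctrl barcode, 3.72 in cNK and 0.38 in NK-receptor T cells. AC149090.1 had 1.08 in ILC1, or 0.84 (-0.08 to 1.86) without 1 IHG barcode, and -0.47 in NK-receptor T cells.

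The neutrophil genes S100a8 and S100a9 had log2 ratios of -4.80 and -6.24 in ILC1 and 2.97 and 0.93 in cNK. Slpi had -4.14 in ILC1 and 3.22 in cNK, and the chemokine gene Cxcl2 had -2.91 in ILC1 and 2.88 in cNK. In ILC1 the Ctrl UMIs of S100a8, S100a9 and Slpi lay in 4 members each, and those of Cxcl2 in 8. Without the Ctrl barcode with the most UMIs of the gene the ILC1 ratios were -3.49, -5.17, -3.15 and -2.24. With all members but without high doublet scores, S100a8 was 0.85, S100a9 0.20 and Slpi 1.34, with intervals that include 0. Retnlg had 69 UMIs in ILC1, all from Ctrl, and 15 UMIs in cNK, all from IHG. Il22 had 40 UMIs in ILC1, all from 1 IHG barcode, while its log2 ratio in NK-receptor T cells was -3.26. With all members, Apoe had -5.11 in ILC1 and 1.10 in NK-receptor T cells.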

How the results depend on the processing

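Of the recomputed shares and counts, 78 stayed within range, 29 moved and 1 changed sign from an interval that left out 0. Of the 29, 1 share also changed sign, from an interval that included 0. With at least 3 NK genes, 169 genes were higher than in cNK, 89 were higher and 50 lower than in T cells, and 75 were past 2-fold higher and 130 lower in IHG. A margin of 2 genes left 127 lower than in cNK. DESeq2 called 130 higher and 58 lower than cNK, and 118 higher and 39 lower than T cells. Without T-cell receptor UMIs, 332 were lower than in T cells and 147 past 2-fold lower in IHG. Without MHC class II-rich barcodes, 203 were higher than in T cells, and 85 were past 2-fold higher and 99 lower in IHG. With both left out, the log2 ratio of the share of kept barcodes was 0.10 and of the share of ILC1 plus cNK 0.25, and the counts were 52 higher and 47 lower than cNK, 38 higher and 29 lower than T cells, and 41 higher and 40 lower in IHG. A minimum of 50 UMIs gave 23 higher and 66 lower in IHG, a minimum of 1 UMI gave 1966 and 3046, and thinning to 1000 UMIs gave 47 and 64. With no replicate block, 292 genes were higher and 148 lower than in cNK, and 289 higher and 110 lower than in T cells. No paired analysis was possible for IHG over Ctrl because each group has 1 library.

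Of the named genes against cNK, 1431 recomputed values kept their call or sign, 118 lost the call, 11 gained it and 16 changed sign. Against T cells the numbers were 446, 26, 7 and 6. Values without 1 library have no test, and only their sign was compared. It was kept by 95 values without the Ctrl library and 95 without the IHG library against cNK, and by 30 and 31 against T cells. For IHG over Ctrl 417 stayed, 92 moved and 20 changed sign from an interval that left out 0. Sign changes from an interval that included 0 are among those that stayed or moved. Without T-cell receptor UMIs the log2 fold changes against cNK were -0.38 for Xcl1, -0.38 for Maf, -0.28 for Id2, -0.13 for Tgfbr2, -0.95 for Tnfaip3, -0.26 for Hmgb2 and -0.85 for Serpinb6b, and against T cells -0.65 for Xcl1, -0.25 for Ccl4, -0.90 for Rora, -0.54 for Tbx21 and 0.73 for Ifi27l2a. The IHG over Ctrl ratios were then -0.23 for Ifit1, -0.62 for Irf7, 2.31 for S100a8, 0.73 for S100a9 and 0.056 for Cxcl2. With both left out the values against cNK were 0.038 for Gzmb and 0.56 for Tbx21, and for IHG over Ctrl -2.004 for Irf7, -5.55 for Ifi27l2a, 4.63 for Cxcl2, 1.90 for Slpi, -1.16 for Polr2l and 1.17 for Apoe. Tbx21 against cNK was 0.55 with 3 NK genes, 0.025 with 500 genes, 0.11 without barcodes with macrophage, B or basophil UMIs, 0.35 without MHC class II-rich barcodes, 0.18 without the Ctrl library and -0.16 without the IHG library. Id3 was -0.53 with 3 NK genes, Tnfaip3 -0.0064 without the IHG library and 0.32 without the Ctrl library, and Retnlg against T cells -0.058 without the Ctrl library and 6.76 without the IHG library. For IHG over Ctrl, Ifi27l2a was -1.74 without MHC class II-rich barcodes, Bst2 0.22 with a margin of 2 and 0.81 with 3 NK genes, and AC149090.1 -0.020 with a margin of 2. Without high doublet scores S100a8 was 0.85, S100a9 0.20 and Slpi 1.34. Without MHC class II-rich barcodes and the barcode with the most UMIs of the gene, Bst2 was 0.33 and Tnf -0.10. The cause was not tested for any of these. Trac, Trbc1 and Trbc2 have no value without T-cell receptor UMIs, since that choice sets them to 0; of the 75 members it left, 39 were MHC class II-rich, 12 of 33 in IHG and 27 of 42 in Ctrl.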
